A study of Mus musculus with 15 samples.

Results

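The genes described here are 10 mouse genes of the AP-1 and immediate early response, namely Fos, Fosb, Fosl1, Fosl2, Jun, Junb, Maff, Egr1, Egr2 and Ptgs2. They were taken by name, as every probe set of the Affymetrix array annotated to 1 of these genes, which gave 15 probe sets for the 10 genes among 18193 genes represented in all. Fosl1, Fosl2, Jun, Egr2 and Ptgs2 had 2 probe sets each, and the other 5 genes had 1. Expression had been measured on 15 arrays, 3 for each of 5 kinds of cells. These were the induced pluripotent stem (iPS) cell lines IP20D-3, IP14D-101 and IP14D-1, CL11, a line of embryonic stem (ES) cells, and mouse embryonic fibroblasts (MEF) from which iPS cells had been made. IP20D-3, IP14D-1, CL11 and MEF have the B6D2F1 genetic background. IP14D-101 has the C57x129S2 background, so line and background cannot be told apart for it.

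The 4 stem cell lines had been grown with leukaemia inhibitory factor (LIF) on a feeder layer of fibroblasts whose division had been stopped with mitomycin C, so that some feeder RNA may be in each of their samples. The labels give serum or a serum replacement as the supplement without saying which line had which, and they give no medium for the MEF samples. Each line is a single established line, and the 3 samples of a group are called biological replicates. The p values therefore rest on the spread between samples within a group, pooled over all 5 groups, and not on a spread between independent lines. In such bulk samples, fewer cells that express a gene and less RNA per cell cannot be told apart.

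Immediate early genes are transcribed within minutes of a stimulus such as serum, growth factors or stress, without any need for new protein, and most of their transcripts are short-lived. Many encode transcription factors. The FOS proteins (Fos, Fosb, Fosl1, Fosl2) pair through a leucine zipper with the JUN proteins (Jun, Junb) to form AP-1, which binds the TPA response element in the regulatory regions of matrix, protease and cytokine genes. Egr1 and Egr2 are zinc-finger factors of the same response, Maff is a small MAF protein that has a leucine zipper but no activation domain of its own, and Ptgs2 encodes cyclooxygenase-2, the inducible enzyme of prostaglandin synthesis. In fibroblasts AP-1 is known for its part in proliferation, matrix turnover and the serum response.

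Promoters are shown for Ptgs2, Jun, Fosl2 and Egr2, which were among the members with large differences between cell types, Fosl2 by 1 of its 2 probe sets. That of Fos is shown as the textbook case of immediate early control. The sequences are RefSeq's, on mouse build GRCm38.p6, and 8 of the 10 members had an entry, with 14 annotated starts among them; Fosl1 and Egr1 had none in the table used. Each line gives the 250 bases before an annotated start, 5′ to 3′ on the gene's strand, with matches to the searched motifs in capitals. The windows are chr12:85473640-85473889 (plus strand) for Fos, chr4:95052223-95052472 (minus strand) for Jun, chr5:32136222-32136471 (plus strand) for Fosl2 and chr1:150099781-150100030 (plus strand) for Ptgs2. The Egr2 line holds only 30 bases, chr10:67537787-67537816 (plus strand), around a CArG box that begins 72 bases before the third of its 5 annotated starts.
Fos: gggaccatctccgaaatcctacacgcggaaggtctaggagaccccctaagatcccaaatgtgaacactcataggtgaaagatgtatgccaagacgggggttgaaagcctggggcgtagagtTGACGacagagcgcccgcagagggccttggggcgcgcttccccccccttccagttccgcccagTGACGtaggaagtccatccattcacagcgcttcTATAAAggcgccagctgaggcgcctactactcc
Jun: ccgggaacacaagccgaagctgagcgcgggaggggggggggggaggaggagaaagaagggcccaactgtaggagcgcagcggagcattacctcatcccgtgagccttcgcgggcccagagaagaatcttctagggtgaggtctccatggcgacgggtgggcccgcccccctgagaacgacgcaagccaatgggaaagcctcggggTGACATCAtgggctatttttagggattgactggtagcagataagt
Fosl2: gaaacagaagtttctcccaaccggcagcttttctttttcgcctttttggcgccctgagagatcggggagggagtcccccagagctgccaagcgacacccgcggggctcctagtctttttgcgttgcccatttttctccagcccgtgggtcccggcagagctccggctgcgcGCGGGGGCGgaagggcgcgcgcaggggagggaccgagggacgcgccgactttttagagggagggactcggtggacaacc
Ptgs2: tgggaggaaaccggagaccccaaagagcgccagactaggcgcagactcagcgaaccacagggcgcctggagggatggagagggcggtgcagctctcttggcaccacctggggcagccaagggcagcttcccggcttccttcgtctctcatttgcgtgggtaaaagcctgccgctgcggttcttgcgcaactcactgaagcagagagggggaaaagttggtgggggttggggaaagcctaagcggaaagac
Egr2: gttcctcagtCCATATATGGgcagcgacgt
The motifs were searched on both strands. The Fos window held the core of the cyclic AMP response element, TGACG, 129 and 66 bases before the start and a TATA box, TATAAA, 33 bases before it. The core was in 17.8% and the TATA box in 12.4% of all 32851 promoter windows of this length. The Jun window held the octamer TGACATCA 45 bases before the start, which was in 2.93% of windows. The Fosl2 window held a site for EGR factors, GCGNGGGCG, 79 bases before the start, against 4.7% of windows. The CArG box, where serum response factor binds, was in 1.47% of windows. Among the 8 members searched only Egr2, with its 5 windows, had one within these 250 bases. Egr1 and Fosl1 had no window. Bases farther upstream, also those of Fos, were not searched, nor were bases outside the windows on the other side. The TPA response element, searched as TGANTCA and present in 6.75% of windows, matched no window of the 8 members. None of the 7 motifs matched in the Ptgs2 window, which ends at its 1 annotated start, and bases beyond that start were not searched. The full cyclic AMP response element, TGACGTCA, which overlaps the core, was in 1.55% of windows and matched Maff alone among the 8 members searched. Such matches describe these letters in these windows and are not evidence of binding.

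Levels are given as the deposited signal after each array had been scaled to a common 2% trimmed mean, and differences as log2(signal + 16) of the group named first minus that of the group named second, with the standard error of the limma model. Signals of different probe sets are not comparable with each other. A signal of 2087 (log2 11.04), which 95% of the values of 39 olfactory receptor genes did not exceed, was taken as background. Where the dimmer group had a mean below it, the fold is given as at least the ratio to background. The 12 pluripotency markers examined were above background in all 4 lines and 1 of them was in MEF, while all 15 measured of 16 listed fibroblast markers were above background in MEF. The summed signal of those fibroblast markers, as a percentage of the MEF mean, was 0.377 to 0.483 on the IP20D-3 arrays, 0.677 to 0.702 on the IP14D-101 arrays, 0.812 to 0.877 on the IP14D-1 arrays and 0.537 to 0.667 on the CL11 arrays. In IP14D-101 and CL11 the marker Pdgfra alone stood at 70.2% and 53.2% of its own MEF mean.

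**Figure D1:**
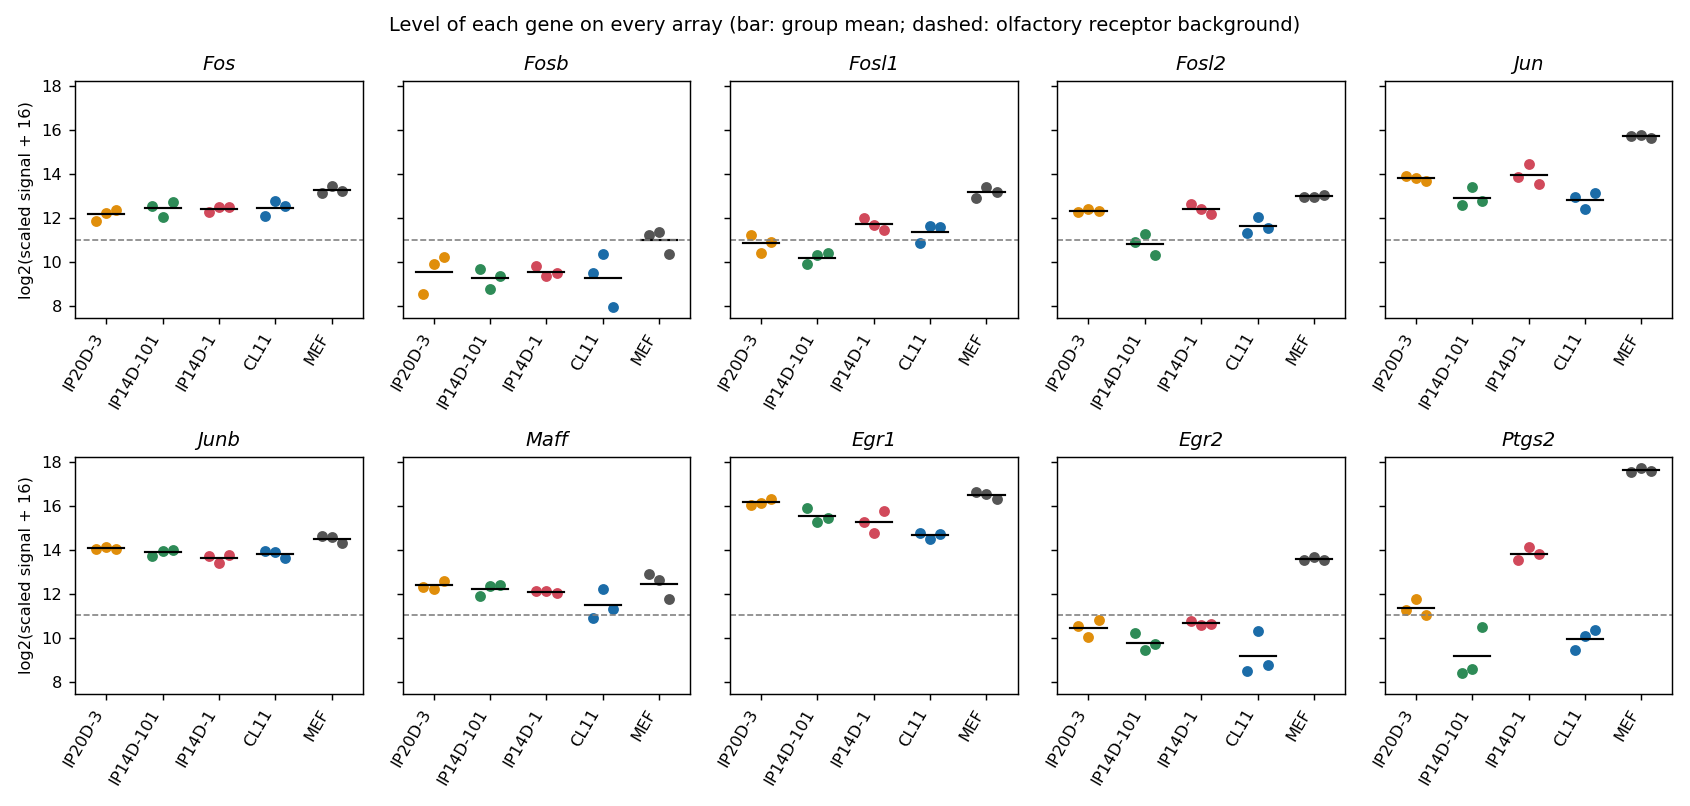
Level of each of the 10 genes on every array, as log2(scaled signal + 16) of the probe set that represents the gene. Each point is 1 array, the short bar is the mean of 3 arrays and the dashed line is background at log2 11.04. MEF has the highest mean for each gene, and the gap is widest for Ptgs2, whose MEF arrays lie between 17.54 and 17.76.

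The first question was how the genes differed between the pluripotent lines and the fibroblasts. All 10 genes had their highest mean in MEF, and every difference from MEF was below 0, so none was called higher; calls were made at an adjusted p under 0.05. In IP20D-3, 7 of the 10 were lower than in MEF, where 23.7% of all genes were lower and 30.5% higher. In IP14D-101, 9 were lower, against 24.7% of all genes lower and 30.5% higher. In IP14D-1, 7 were lower, against 23% of all genes lower and 30% higher. In CL11 all 10 were lower, against 23.8% of all genes lower and 30.4% higher. By probe set, 10 of the 15 were lower in IP20D-3 (20.3% of all probe sets), 13 in IP14D-101 (23.9%), 11 in IP14D-1 (18.7%) and 13 in CL11 (21.4%). The median difference of the members was -1.28 in IP20D-3, -1.94 in IP14D-101, -1.32 in IP14D-1 and -1.76 in CL11 on the log2 scale, and that of all genes lay between 0.05 and 0.13. The 4 comparisons share the same 3 MEF arrays, so a chance high value in MEF would enter all of them. Most macrophage markers were also lower. All 8 were above background in MEF, and 7 were called lower and 1 higher in IP20D-3, 7 and 0 in IP14D-101, 6 and 1 in IP14D-1, and 7 and 1 in CL11. Their summed signal, as a percentage of the MEF mean, was 25.3 to 33.8 in IP20D-3, 17.7 to 23.1 in IP14D-101, 30.9 to 31.4 in IP14D-1 and 41.4 to 45.6 in CL11, and Ptprc, C1qa, C1qb, Tyrobp and Fcer1g were below background in all 4 lines. Their part in the members' differences was not tested.

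**Figure D2:**
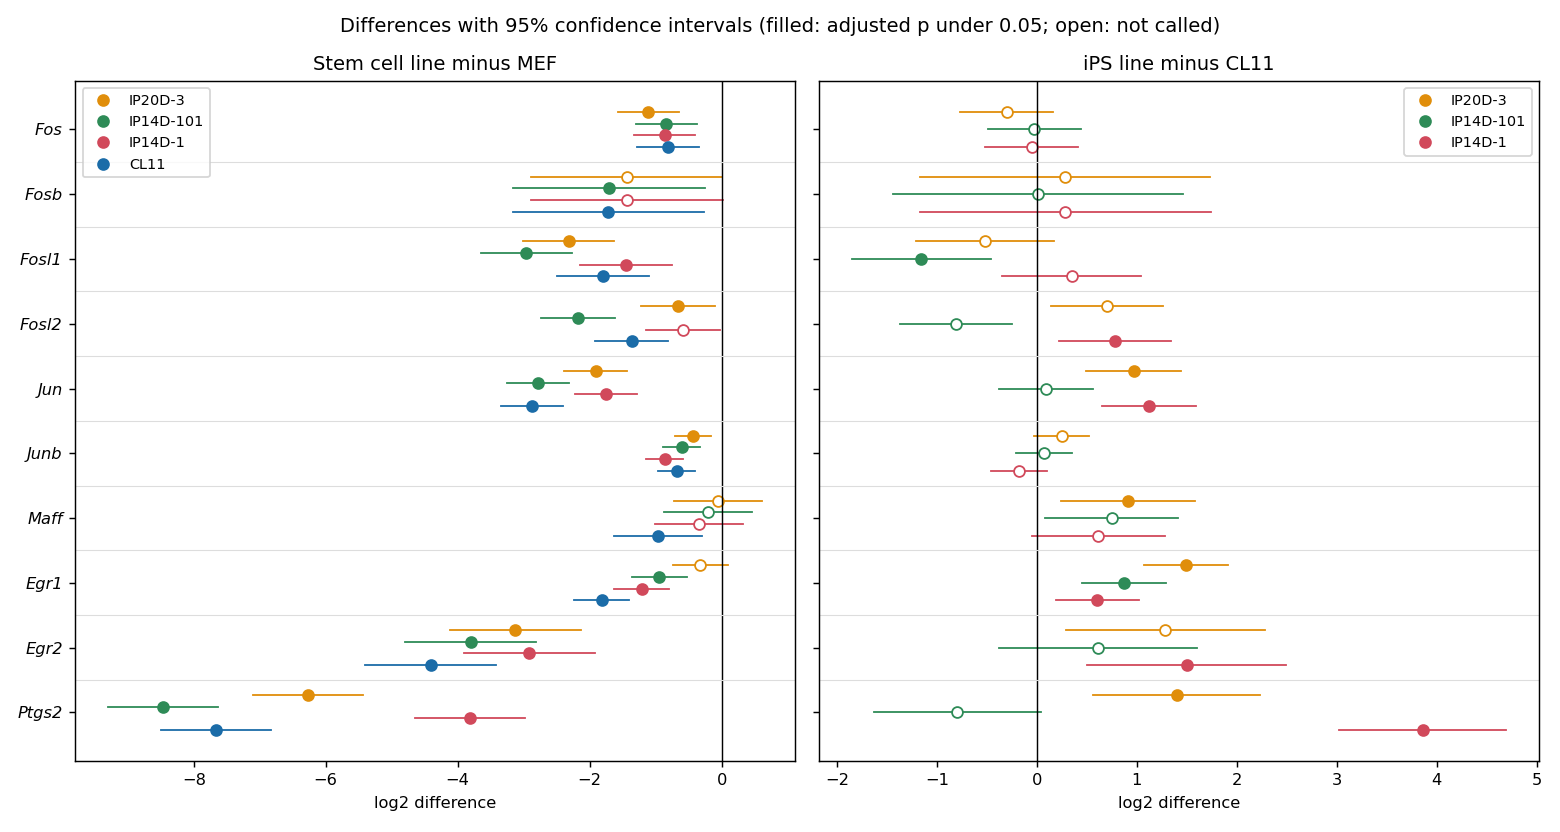
Log2 differences with 95% confidence intervals for each gene, on the left for the 4 lines minus MEF and on the right for the 3 iPS lines minus CL11. Filled points passed an adjusted p under 0.05 and open points did not. On the left all points lie below 0 and Ptgs2 lies farthest, from -3.81 in IP14D-1 to -8.46 in IP14D-101, which is below background, as is CL11. On the right Ptgs2 in IP14D-1 lies farthest, at 3.86.

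Among the FOS family, Fos itself, the partner that gives AP-1 its stable DNA binding with Jun, differed modestly. Its signals were 3813, 4916 and 5354 on the IP20D-3 arrays, 6010, 4330 and 6804 on the IP14D-101 arrays, 4949, 5866 and 5791 on the IP14D-1 arrays and 4379, 7012 and 6110 on the CL11 arrays, against 9251, 11245 and 9802 on the MEF arrays. Every MEF array lay above every array of the lines. The difference from MEF was -1.11 ± 0.22 in IP20D-3 (adjusted p = 0.000213), -0.84 ± 0.22 in IP14D-101 (0.00288), -0.86 ± 0.22 in IP14D-1 (0.00236) and -0.81 ± 0.22 in CL11 (0.00382), by limma with Benjamini-Hochberg adjustment. Scaling by the median ended the calls in IP14D-101, at -0.49, and in CL11, at -0.59. None of the 6 comparisons between lines called Fos, and the lowest bound of their 95% intervals was -0.77. With no scaling IP20D-3 was called lower than IP14D-1, at -0.79.

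Fosl1 encodes Fra-1, a FOS protein without the transactivation domain of Fos. Its brighter probe set, 1417487_at, had signals of 2397, 1358 and 1920 in IP20D-3, 954, 1257 and 1363 in IP14D-101, 4135, 3293 and 2819 in IP14D-1 and 1848, 3195 and 3147 in CL11, against 7761, 10989 and 9317 in MEF. No line overlapped MEF, and all 3 IP14D-101 arrays lay below background. Fosl1 was lower by at least 4.21-fold in IP20D-3 (adjusted p = 4.16e-06) and by at least 4.41-fold in IP14D-101 (1.47e-07), and the measured differences were -1.45 ± 0.33 in IP14D-1 (0.000837) and -1.80 ± 0.33 in CL11 (9.07e-05). The second probe set, 1417488_at, was lower in all 4 lines but passed the test in IP14D-101 alone (adjusted p = 0.000367), and its values in MEF lay between 2981 and 3838, near background.

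Fosl2 encodes Fra-2, and its 2 probe sets disagreed on the size of the difference. The one that represents the gene, 1422931_at, had signals of 4956, 5460 and 5222 in IP20D-3, 1912, 2486 and 1260 in IP14D-101, 6418, 5490 and 4704 in IP14D-1 and 2580, 4265 and 2970 in CL11, against 8051, 8094 and 8664 in MEF. All line arrays lay below the MEF arrays. It was at least 3.72-fold lower in IP14D-101 (adjusted p = 5.17e-07) and -1.37 ± 0.27 in CL11 (0.000171). The difference of -0.66 ± 0.27 in IP20D-3 passed narrowly (0.0416) and was lost under quantile and median scaling, without any 1 of the compared arrays, and in the fit over probe sets. That of -0.59 ± 0.27 in IP14D-1 did not pass (0.0726). The other probe set, 1437247_at, gave 1611, 1110 and 129 in IP20D-3, 388, 247 and 644 in IP14D-101, 4495, 3093 and 2558 in IP14D-1 and 157, 125 and 818 in CL11, against 72464, 78147 and 80394 in MEF. By this probe set Fosl2 was lower by at least 36.6-fold in IP20D-3, IP14D-101 and CL11, all below background (adjusted p = 1.49e-07, 4.1e-08 and 1.37e-08), and 23.3-fold lower in IP14D-1 (adjusted p = 3.78e-05), which was the only line above background on all 3 arrays. Which part of the transcript each probe set reads is not given in the sources used here.

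Fosb, a FOS protein with its own activation domain, was near the limit of the array. Its signals were 2410, 2615 and 1334 in MEF, of which 2 were above background, and none of the 12 line arrays exceeded it, with values between 232 and 1338. Calls against MEF in IP14D-101 (adjusted p = 0.0434) and CL11 (0.0426) concern means that are all below background, so no fold is given, and neither call held under quantile or median scaling or without replicate 1 or 2 of MEF.

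**Figure D3:**
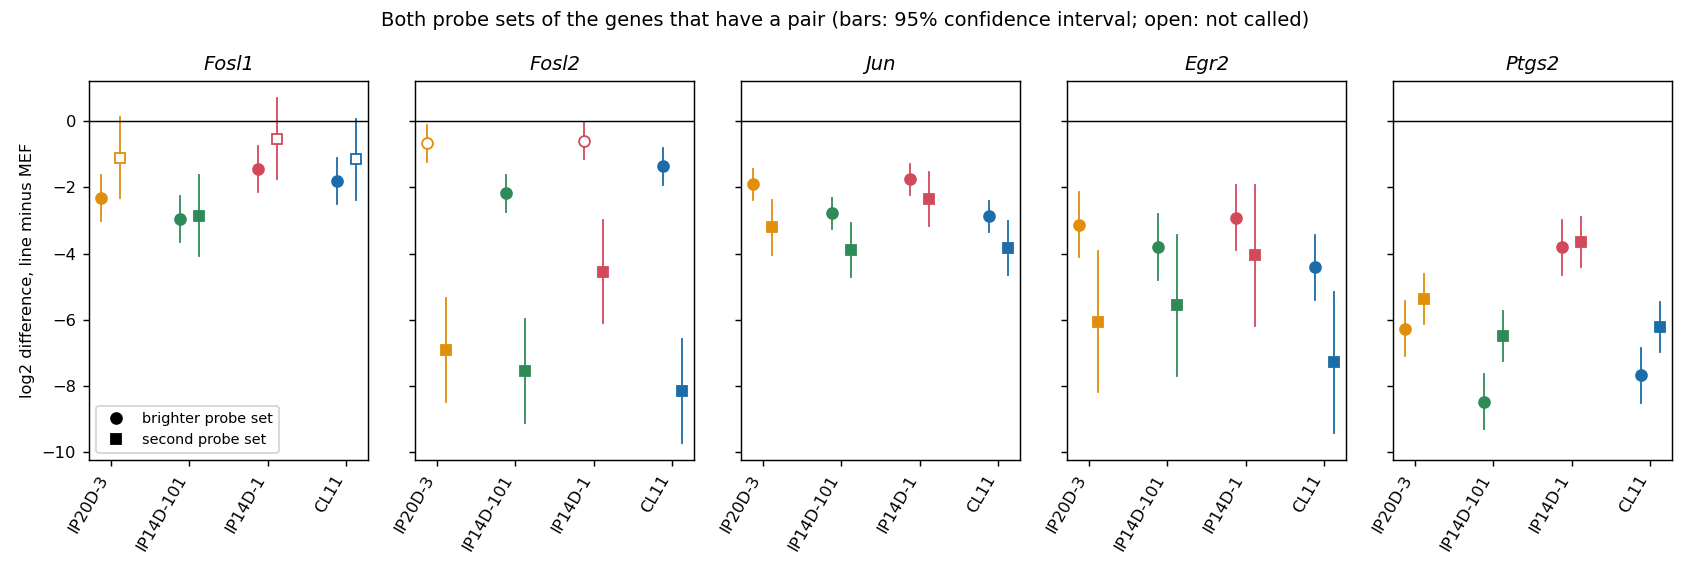
Log2 difference from MEF by both probe sets of the 5 genes that have a pair, with 95% confidence intervals from the fit over all probe sets. Circles are the probe set that represents the gene, squares the other one, and open symbols did not pass an adjusted p under 0.05. The pair for Fosl2 lies far apart, although its second probe set is below background in IP20D-3, IP14D-101 and CL11, so that those squares show at least 36.6-fold and their exact positions are not measured. Both Ptgs2 probe sets place IP14D-1 nearest to MEF, at -3.81 and -3.65.

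Jun, the JUN protein for which the family is named and a strong activator as AP-1, was lower in every line. Signals of probe set 1417409_at were 15491, 14657 and 13365 in IP20D-3, 6215, 11136 and 7091 in IP14D-101, 15176, 22607 and 12139 in IP14D-1 and 8135, 5467 and 9126 in CL11, against 55122, 56691 and 51802 in MEF. The MEF arrays stood clear of all others, and all arrays of IP20D-3 and IP14D-1 lay above all arrays of IP14D-101 and CL11. The difference from MEF was -1.91 ± 0.22 in IP20D-3 (adjusted p = 3.61e-07), -2.79 ± 0.22 in IP14D-101 (1.49e-09), -1.76 ± 0.22 in IP14D-1 (1.19e-06) and -2.88 ± 0.22 in CL11 (9.35e-10). The second probe set, 1448694_at, also called all 4 lines lower, 9.23-fold in IP20D-3 and 5.09-fold in IP14D-1, and at least 10.9-fold in IP14D-101 and at least 11.6-fold in CL11, whose means were below background.

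Junb, a JUN protein with weaker activity than Jun on many targets, had the tightest replicates of the members and the smallest called differences. Its signals were 16799, 17864 and 17195 in IP20D-3, 13546, 16071 and 16481 in IP14D-101, 13775, 10949 and 14044 in IP14D-1 and 15878, 15316 and 12713 in CL11, against 25253, 24542 and 20522 in MEF. The line arrays ran from 10949 to 17864 and all lay below the MEF arrays. Junb differed by -0.43 ± 0.13 in IP20D-3 (adjusted p = 0.0089), -0.61 ± 0.13 in IP14D-101 (0.000542), -0.86 ± 0.13 in IP14D-1 (1.2e-05) and -0.68 ± 0.13 in CL11 (0.000178). Scaling by the median ended the calls in IP20D-3, at -0.33, and in IP14D-101, at -0.26. No pair of lines differed by the test, the nearest being IP20D-3 against IP14D-1 at 0.43 ± 0.13 (adjusted p = 0.05). That pair passed under quantile and median scaling, with 64 or 1000 added to the signal in place of 16, and with only genes above background in a group. Under median scaling IP14D-101 was also higher than IP14D-1, at 0.62 (adjusted p = 0.00398), against 0.25 ± 0.13 with trimmed-mean scaling.

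Maff, which as a dimer with other small MAF proteins represses and with NFE2-type partners activates, overlapped MEF in every line. Its signals were 5130, 4847 and 6202 in IP20D-3, 3839, 5200 and 5506 in IP14D-101, 4471, 4461 and 4168 in IP14D-1 and 1899, 4756 and 2552 in CL11, against 7704, 6316 and 3512 in MEF. The third MEF array lay below all arrays of the iPS lines. CL11 alone passed against MEF, at -0.96 ± 0.32 (adjusted p = 0.0149), and that call was lost under quantile or median scaling, with only the compared arrays, and without replicate 1 or 3 of CL11 or replicate 1 or 2 of MEF, with values between -0.67 and -0.96. The intervals for the other lines ran from -1.01 to 0.62.

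Egr1, a zinc-finger factor that responds to nearly every stimulus of immediate early genes, was graded across the lines. Its signals were 68166, 72406 and 81258 in IP20D-3, 61529, 40200 and 44619 in IP14D-101, 39810, 28527 and 55838 in IP14D-1 and 28373, 23601 and 26964 in CL11, against 101230, 96554 and 81002 in MEF. IP20D-3 overlapped MEF by 1 array, and CL11 lay below all others. The difference from MEF was -0.33 ± 0.20 in IP20D-3 (adjusted p = 0.184), -0.95 ± 0.20 in IP14D-101 (0.000545), -1.21 ± 0.20 in IP14D-1 (5.25e-05) and -1.82 ± 0.20 in CL11 (5.17e-07). IP20D-3 passed with no scaling of the arrays, at -0.96, and in a fit of its own arrays with MEF alone.

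Egr2, a related factor known from hindbrain and Schwann cell development as well as from the serum response, was above background in MEF alone. Probe set 1427683_at gave 1498, 1032 and 1800 in IP20D-3, 1175, 687 and 828 in IP14D-101, 1763, 1540 and 1606 in IP14D-1 and 344, 1248 and 423 in CL11, against 12116, 13360 and 11804 in MEF. Every line array lay below background, so each line is given as at least 5.91-fold lower than MEF, with adjusted p values from 8.16e-08 in CL11 to 2.23e-05 in IP14D-1. The second probe set, 1427682_a_at, gave at least 5.57-fold for each line, with adjusted p values from 4.89e-06 to 0.00267.

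Ptgs2 had the widest range of the members. Probe set 1417262_at gave signals of 2466, 3470 and 2109 in IP20D-3, 330, 370 and 1421 in IP14D-101, 11830, 17956 and 14395 in IP14D-1 and 679, 1064 and 1318 in CL11, against 191070, 221420 and 199710 in MEF. All arrays of IP14D-1 and, narrowly, of IP20D-3 were above background, and all arrays of IP14D-101 and CL11 were below it. Ptgs2 was 77.2-fold lower in IP20D-3 (adjusted p = 4.74e-11), at least 96.9-fold lower in IP14D-101 (4.98e-13), 14.0-fold lower in IP14D-1 (8.24e-08) and at least 96.9-fold lower in CL11 (2.33e-12). The second probe set, 1417263_at, had 70589, 75827 and 68385 in MEF and gave 12.6-fold lower in IP14D-1 and at least 32.6-fold lower in IP20D-3 and 34.0-fold lower in IP14D-101 and CL11.

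The second question was whether the lines differed among themselves, which here also tests whether their change from MEF differed, since MEF is common to both sides. Against CL11, 4 of the 10 members were higher in IP20D-3, where 10.6% of all genes were higher and 11.4% lower, 1 was higher and 1 lower in IP14D-101, where 5.96% were higher and 5.46% lower, and 5 were higher in IP14D-1, where 11.7% were higher and 12.5% lower. Among the iPS lines, 4 were higher in IP20D-3 than in IP14D-101 (11.1% of all genes higher and 12.5% lower), 1 was higher and 1 lower in IP20D-3 than in IP14D-1 (4.88% and 4.35%), and 4 were lower in IP14D-101 than in IP14D-1 (13.2%, with 15% higher). These shares are those of all arrays with trimmed-mean scaling. With median scaling or without replicate 1 of CL11, the counts for IP20D-3 and for IP14D-1 against CL11 were 2. The count for IP14D-1 was also 2 without replicate 3 of CL11 or its own replicate 1, and 3 without its replicate 2 or 3. That for IP20D-3 was also 2 without its replicate 2, and that for IP14D-101 was 1 without its replicate 1 or replicate 3 of CL11. The comparisons share arrays with each other and are not independent.

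Ptgs2, Jun and Fosl2 were higher in IP20D-3 and in IP14D-1 than in IP14D-101. Ptgs2 was at least 6.91-fold higher in IP14D-1 than in CL11 (log2 3.86 ± 0.40, adjusted p = 9.98e-07), at least 6.91-fold lower in IP14D-101 than in IP14D-1 (-4.66 ± 0.40, 1.1e-07) and 5.51-fold lower in IP20D-3 than in IP14D-1 (-2.46 ± 0.40, 0.000526). It was also at least 1.25-fold higher in IP20D-3 than in IP14D-101 (adjusted p = 0.000445) and than in CL11 (0.0154), and the call against CL11 was lost under median scaling, without the variance trend and without replicate 1 of CL11 or replicate 2 of IP20D-3. By the second Ptgs2 probe set, on which IP20D-3 and CL11 were both below background, IP14D-1 was at least 2.71-fold above CL11 (adjusted p = 4.3e-05), and IP20D-3 against CL11 did not pass (0.128) and has no fold. Jun was higher than in CL11 by 0.97 ± 0.22 in IP20D-3 (adjusted p = 0.00375) and 1.12 ± 0.22 in IP14D-1 (0.00103). By its second probe set, on which CL11 was below background, IP14D-1 was called higher than CL11, by at least 2.28-fold (0.012; 9.48% of all probe sets were called higher there), and IP20D-3, at least 1.26-fold above it, did not pass (0.357). Jun was lower by -1.03 ± 0.22 in IP14D-101 than in IP14D-1 (0.00176) and higher by 0.87 ± 0.22 in IP20D-3 than in IP14D-101 (0.00718). Both IP20D-3 calls were lost with the mean over probe sets, at 0.80 against CL11 and 0.78 against IP14D-101.

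Fosl2 by its representing probe set was at least 2.34-fold higher in IP20D-3 than in IP14D-101 (adjusted p = 0.000308), which the mean over probe sets did not keep, and at least 2.47-fold lower in IP14D-101 than in IP14D-1 (0.000148). Its excess in IP14D-1 over CL11, 0.78 ± 0.27 (0.039), was lost under quantile and median scaling and without replicate 1 or 3 of CL11 or replicate 1 or 2 of IP14D-1. The other probe set gave at least 1.57-fold higher in IP14D-1 than in CL11 (0.00198). Egr2 differed between IP14D-1 and CL11 by 1.50 ± 0.47 (0.0253) with both means below background, and this call was lost under quantile and median scaling, with only the compared arrays, and without any 1 array but replicate 2 of CL11.

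Egr1 had an order of its own. It was higher in IP20D-3 than in CL11 by 1.49 ± 0.20 (adjusted p = 4.16e-05), than in IP14D-1 by 0.89 ± 0.20 (0.00961) and than in IP14D-101 by 0.62 ± 0.20 (0.0308), and higher than in CL11 by 0.87 ± 0.20 in IP14D-101 (0.00843) and 0.60 ± 0.20 in IP14D-1 (0.0345). The difference between IP14D-101 and IP14D-1 did not pass (0.27 ± 0.20, 0.365), though it did under median scaling, at 0.63 (adjusted p = 0.0215), and without replicate 3 of IP14D-1, at 0.51 (0.0291). The calls of IP20D-3 over IP14D-101 and of IP14D-1 over CL11 were lost under median scaling, at 0.37 and 0.36, and without the variance trend. They were also lost without any 1 array but replicate 1 of IP14D-101 for the one and replicate 2 of IP14D-1 for the other. The call of IP20D-3 over IP14D-1 was lost with no scaling, at 0.34. Fosl1 was at least 1.61-fold lower in IP14D-101 than in IP14D-1 (0.00177). Its lower level in IP14D-101 than in CL11, at least 1.27-fold (0.0273), was lost under quantile and median scaling, with only the compared arrays, and without replicate 2 or 3 of CL11 or replicate 1 of IP14D-101. By the second Fosl1 probe set IP14D-101 was called lower than IP14D-1 (0.00613). Against CL11 it did not pass (0.0877), with both means below background. Maff was higher in IP20D-3 than in CL11 by 0.91 ± 0.32 (0.0475), a call lost in 7 of the 11 alternative settings, without replicate 1 or 3 of CL11 and without any 1 array of IP20D-3.

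**Figure D4:**
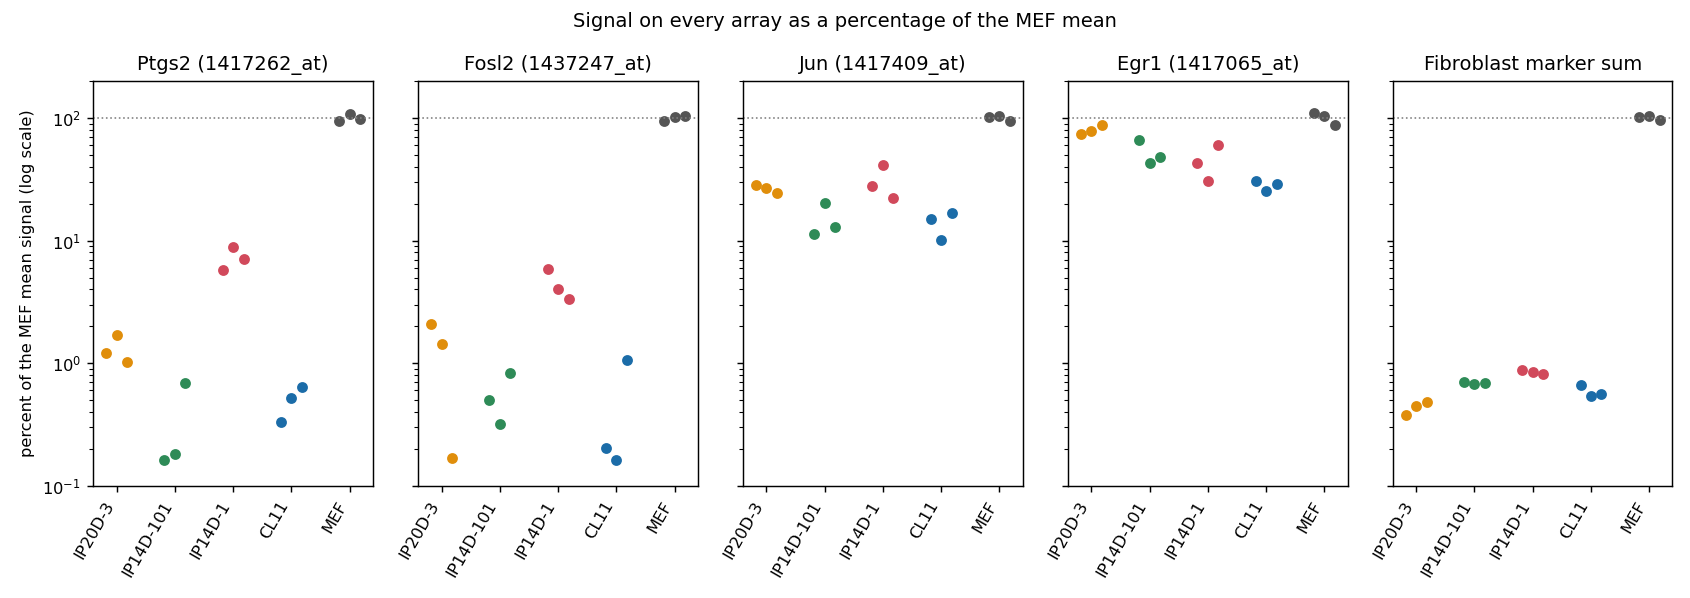
Signal on each of the 15 arrays as a percentage of the MEF mean, on a log axis, for single probe sets of Ptgs2, Fosl2, Jun and Egr1 and, at the right, for the summed signal of 15 fibroblast markers. Ptgs2 on the IP14D-1 arrays lies between 5.80 and 8.80 percent, and the fibroblast marker sum on the same arrays between 0.812 and 0.877 percent.

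Because the lines had been grown on fibroblasts, the share of the MEF level is given beside that of the fibroblast markers. In IP14D-1 Ptgs2 stood at 7.22% of its MEF mean by 1417262_at and 8.13% by 1417263_at, while the fibroblast marker sum stood at 0.812 to 0.877%. Fosl2 stood there at 4.39% by 1437247_at and at 67.0% by 1422931_at, which represents the gene. Of the 15 markers, 7 were above background in IP14D-1, among them Col1a1 at 0.565%, Col3a1 at 0.747%, Postn at 0.308% and Twist1 at 10.9% of MEF, and these first 3 were below background in IP20D-3, IP14D-101 and CL11. Of those 15 markers, 6 were called higher and 1 lower in IP14D-1 than in CL11, against 11.7% and 12.5% of all genes. In IP20D-3, Ptgs2 stood at 1.31% and the marker sum at 0.377 to 0.483%, and in IP14D-101 and CL11 Ptgs2 stood at 0.347% and 0.500%, below background, with marker sums of 0.677 to 0.702% and 0.537 to 0.667%. The part of feeder RNA in these differences was not tested.

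Another group of markers moved with the split of the lines. The summed signal of 9 primitive endoderm markers ran from 42252 to 45943 in IP20D-3, from 274470 to 315180 in IP14D-101, from 57957 to 62582 in IP14D-1 and from 398630 to 403660 in CL11. In MEF, where 5 of the 9 were above background, it ran from 743650 to 801770, so the sum does not mark primitive endoderm alone. All 9 were called lower in IP20D-3 and in IP14D-1 than in CL11, against 11.4% and 12.5% of all genes. Sox17, Foxa2 and Gata6 were below background in IP20D-3 and IP14D-1, and none of the 9 was below background in IP14D-101 or CL11. The 3′ probe set of actin over its 5′ probe set, a ratio that rises with RNA degradation, gave 1.25 to 1.30 in IP20D-3, 1.16 to 1.29 in IP14D-101, 1.32 to 1.39 in IP14D-1 and 1.19 to 1.22 in CL11, against 1.14 to 1.17 in MEF. The part of either in the members' differences was not tested.

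Pooled over all 5 groups, also those below background, the members' spread between replicates was wide for most of them. Set against 11378 genes with a mean over the arrays above background, the residual standard deviation of Ptgs2, 0.60 on the log2 scale, lay at percentile 94.4. Fosb lay at 97.2 and Egr2 at 91.9, though their own means over the arrays were below background. Maff lay at 88.4, Fosl1 at 82.1, Jun at 81.8, Fosl2 at 77.1, Egr1 at 75.3, Fos at 71.9 and Junb, at 0.16, at 43.2, where the median gene had 0.17. Within groups, Ptgs2 had 1.14 in IP14D-101, below background, and 0.11 in MEF. Egr2 had 0.97 in CL11, below background, and 0.09 in MEF, while Maff had 0.59 in MEF, above background. Profiles over the 15 arrays, each centred on its mean, were compared by their root mean square log2 difference. The gene most like Ptgs2 was Cd44, the hyaluronan receptor, at 0.89, then Msrb3 at 0.92. Jun was nearest to Lrrk2 (0.27) and Pde4dip (0.28), Egr1 to Ap3m2 (0.28) and Dact1 (0.28), Egr2 to Armcx3 (0.40) and Fosl2 to Zfp950 (0.25). Within the members, Fos and Junb were each other's nearest (0.36), as were Fosl1 and Jun (0.64), while Ptgs2 was 1.82 from its nearest, Egr2.

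**Figure D5:**
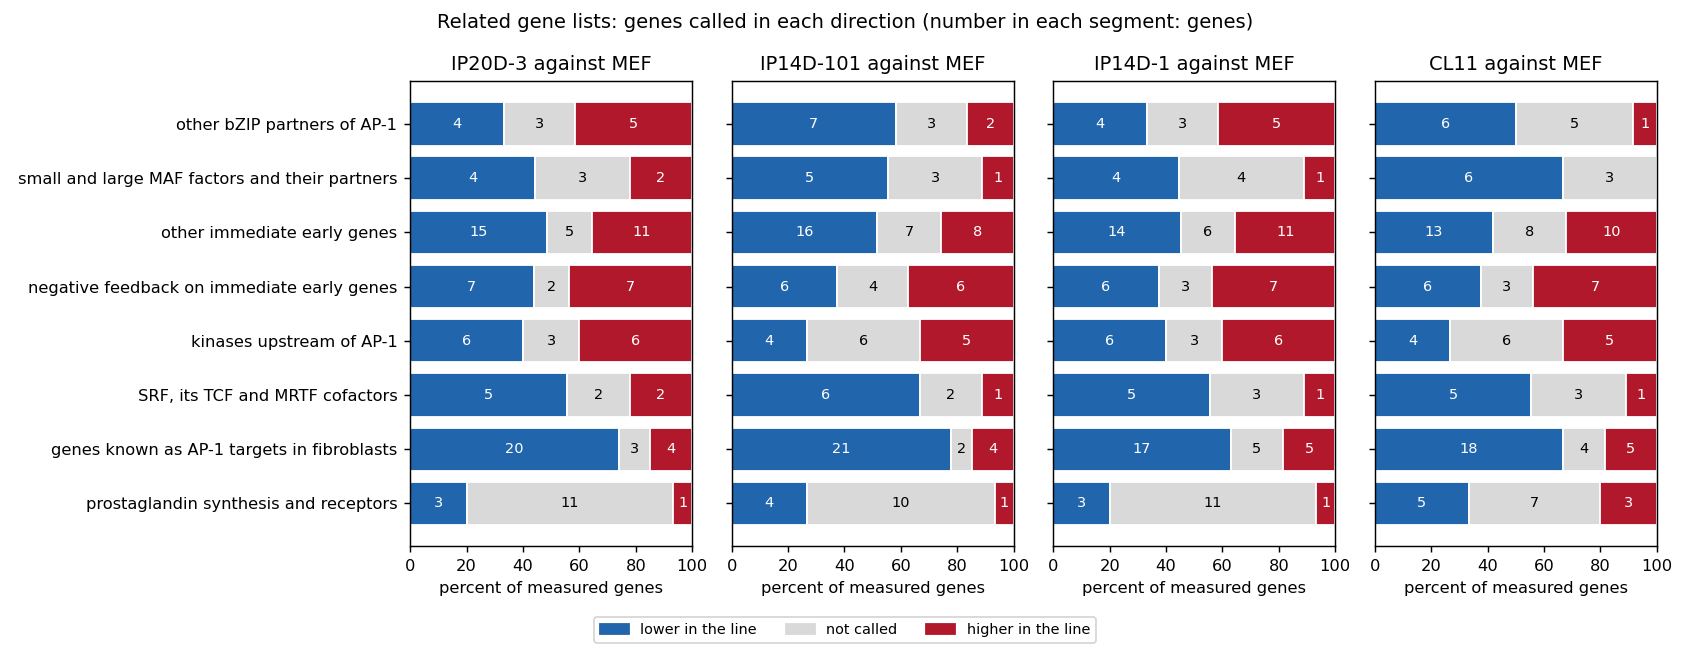
Share of measured genes called lower, not called or called higher against MEF in each of the 4 lines, for 8 lists of genes related to the members. The number in each segment counts genes. Among 27 genes known as AP-1 targets in fibroblasts, 17 to 21 were called lower and 4 or 5 higher. Of all genes, 23% to 24.7% were called lower and 30% to 30.5% higher.

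Genes known as AP-1 targets in fibroblasts were largely lower in the lines. Of 27 measured of 30 listed, 20 were lower and 4 higher than in MEF in IP20D-3, 21 and 4 in IP14D-101, 17 and 5 in IP14D-1, and 18 and 5 in CL11. Across all genes 23% to 24.7% were lower and 30% to 30.5% higher. The list's median was -2.37, -2.79, -1.73 and -2.49 in these 4 lines, against 0.05 to 0.13 for all genes. Many of them are also known as matrix genes of fibroblasts. Lox, which crosslinks collagen, was 333-fold lower in IP20D-3, at least 341-fold lower in IP14D-101, 56.0-fold lower in IP14D-1 and at least 330-fold lower in CL11. Cd44 was 134-fold lower in IP20D-3, at least 154-fold lower in IP14D-101 and CL11, and 44.8-fold lower in IP14D-1. Il6, a cytokine, was lower in all 4 lines by at least 7.32-fold. Between lines, 1 of the 27 was higher and 14 lower in IP14D-101 than in IP14D-1, against 15% of all genes higher and 13.2% lower. This split was 6 and 10 under median scaling and 0 and 19 with no scaling. The median difference of all genes there was then 0.32 and -0.51, so the shares above, taken with trimmed-mean scaling, do not apply. In IP14D-1 against CL11, 12 were higher and 5 lower, against 11.7% and 12.5% of all genes, with Lox at least 5.88-fold higher in IP14D-1 than in CL11 (adjusted p = 3.46e-05).

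Other zipper proteins that pair with AP-1 were split, where 23% to 24.7% of all genes were lower than in MEF and 30% to 30.5% higher. Of 12 listed, all measured, 4 were lower and 5 higher than in MEF in IP20D-3, 7 and 2 in IP14D-101, 4 and 5 in IP14D-1, and 6 and 1 in CL11, and these splits depended on the scaling. With no scaling, 7 were lower and 2 higher in IP20D-3, 9 and 0 in IP14D-101, and 7 and 0 in CL11, and with median scaling 3 and 3 in CL11. The shares of all genes above are those of trimmed-mean scaling. With no scaling the median difference of all genes was -0.52 in IP20D-3, -0.51 in IP14D-101 and -0.34 in CL11. With median scaling it was 0.29 in CL11. Jdp2, a repressor that pairs with Jun, was lower by -2.21 ± 0.27 in IP20D-3, -4.67 ± 0.27 in IP14D-101, -2.51 ± 0.27 in IP14D-1 and -4.92 ± 0.27 in CL11. Atf3, itself an immediate early and stress gene, was higher than in MEF in IP20D-3 (1.19 ± 0.20) and IP14D-1 (1.87 ± 0.20) and lower in IP14D-101 (-1.29 ± 0.20) and CL11 (-0.69 ± 0.20). Ddit3, the stress factor CHOP, was lower than in MEF in IP14D-101 (-3.86 ± 0.27) and CL11 (-3.57 ± 0.27), and its differences in IP20D-3 (-0.47 ± 0.27) and IP14D-1 (-0.46 ± 0.27) did not pass. Between lines, Atf3 was higher by 2.48 ± 0.20 in IP20D-3 than in IP14D-101 (adjusted p = 5.52e-08), Ddit3 by 3.11 ± 0.27 in IP14D-1 than in CL11 (1.46e-06) and Jdp2 by 2.71 ± 0.27 in IP20D-3 than in CL11 (1.25e-06).

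The other immediate early genes moved in both directions. Of 31 genes, 15 were lower and 11 higher than in MEF in IP20D-3, 16 and 8 in IP14D-101, 14 and 11 in IP14D-1, and 13 and 10 in CL11. Over all genes, 23% to 24.7% were lower and 30% to 30.5% higher. With no scaling the split in IP14D-101 was 20 lower and 5 higher. The median difference of all genes was then -0.51 there, so the shares above, taken with trimmed-mean scaling, do not apply. Ccn2 and Ccn1, matricellular proteins induced by serum, were lower in every line, Ccn2 by 22.0-fold in IP20D-3, 18.9-fold in IP14D-101, 11.8-fold in IP14D-1 and 25.5-fold in CL11. Ier5 was 22.0-fold, 20.95-fold, 16.2-fold and 32.0-fold lower in the same order of lines. Arc, known as an immediate early gene of neurons, was below background in MEF and higher by at least 1.75-fold in IP20D-3, 3.06-fold in IP14D-101, 1.35-fold in IP14D-1 and 3.12-fold in CL11. Among the lines, Ier3 was lower by -2.01 ± 0.14 and Phlda1 by -1.81 ± 0.12 in IP20D-3 than in CL11.

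The genes that sit around this response were also mixed. For each list below, the shares of all genes against MEF were 23% to 24.7% lower and 30% to 30.5% higher with trimmed-mean scaling. They do not apply to splits under other scalings. With no scaling the median difference of all genes was -0.52 in IP20D-3 and -0.51 in IP14D-101. With median scaling it was 0.39 in IP14D-101 and 0.29 in CL11. Of 16 feedback genes, 7 were lower and 7 higher than in MEF in IP20D-3, 6 and 6 in IP14D-101, and 6 and 7 in both IP14D-1 and CL11. Nab2 and Nab1, co-repressors that bind EGR proteins, were lower in all 4 lines, Nab2 by 7.90-fold in IP20D-3, 8.89-fold in IP14D-101, 6.24-fold in IP14D-1 and 5.36-fold in CL11. Among 9 genes of serum response factor and its cofactors, 5 were lower and 2 higher in IP20D-3, 6 and 1 in IP14D-101, 5 and 1 in IP14D-1 and 5 and 1 in CL11, where 23% to 24.7% of all genes were lower. These were 7 and 1 in IP20D-3 with no scaling, and 4 and 2 in IP14D-101 and in CL11 under median scaling. Fhl2 was 55.0-fold, 63.1-fold, 24.5-fold and 40.1-fold lower in IP20D-3, IP14D-101, IP14D-1 and CL11, and Ep300, a coactivator, was between 1.89-fold and 2.56-fold higher. Of 15 measured of 22 listed kinases, 6 were lower and 6 higher in IP20D-3 and in IP14D-1, and 4 and 5 in IP14D-101 and CL11. Scaling moved these splits, to 2 lower and 8 higher in IP14D-101 by the median and to 10 lower and 2 higher with none. With no scaling the median difference in IP14D-101 was -0.53 for the kinases and -0.51 for all genes. Of 9 MAF factors and partners measured of 10 listed, 4 were lower and 2 higher in IP20D-3, 5 and 1 in IP14D-101, 4 and 1 in IP14D-1 and 6 and 0 in CL11, and the split was 6 and 0 in IP20D-3 with no scaling and 3 and 2 in IP14D-101 under median scaling. Among those lower was Bach1, a partner of the small MAF proteins, at -0.79 ± 0.09 in IP20D-3, -1.95 ± 0.09 in IP14D-101, -0.84 ± 0.09 in IP14D-1 and -1.62 ± 0.09 in CL11.

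In the prostaglandin pathway around Ptgs2, 3 of 15 measured of 17 listed genes were lower and 1 higher than in MEF in IP20D-3, 4 and 1 in IP14D-101, 3 and 1 in IP14D-1, and 5 and 3 in CL11. The shares over all genes were 23% to 24.7% lower and 30% to 30.5% higher. The list's counts moved with the processing, to 6 and 1 in IP20D-3 and 6 and 1 in CL11 with no scaling, 3 and 3 in IP14D-101 under quantile or median scaling, and 5 and 1 in IP14D-1 without the variance trend or without its replicate 1. The shares above are those of trimmed-mean scaling. With no scaling the median difference of all genes was -0.52 in IP20D-3 and -0.34 in CL11. In IP14D-101 it was 0.21 under quantile and 0.39 under median scaling. Pla2g4a, the phospholipase that releases arachidonic acid for cyclooxygenase, was 59.8-fold lower in IP20D-3, at least 65.2-fold lower in IP14D-101 and CL11 and 17.2-fold lower in IP14D-1, and like Ptgs2 it was higher in IP14D-1 than in CL11, at least 3.79-fold (adjusted p = 1.98e-05). Abcc4, a transporter that exports prostaglandins among other molecules, was 16.1-fold, 19.4-fold, 12.6-fold and 12.8-fold higher than in MEF in IP20D-3, IP14D-101, IP14D-1 and CL11.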

How the data were processed

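The values used are the deposited intensity of each probe set, computed by MAS5 in Affymetrix Expression Console according to the submitters' processing notes, where no version is named; raw scans were not analysed here. Of 45101 probe sets, 64 were controls. Trimmed means (2%) differed 1.83-fold between arrays, from 11141.8 to 20355.5. This exceeded a 5% tolerance, so each array was scaled to the average of these means before log2(signal + 16) was taken. A gene is its highest-mean probe set among 34945 that name a single gene.

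A model with a mean per group was fitted to 15 arrays with limma 3.58.1 in R 4.3.3 (trended, robust moderation). Its p values were adjusted by Benjamini-Hochberg within each of 10 comparisons, over 18193 genes or 45037 probe sets, and called under 0.05. A group mean below background was raised to it, array by array, before a fold was taken. The method was tested on simulated data. The members, the gene lists and the tests were chosen with earlier results of these data known. All 10 members are named. For each list, up to 4 called genes of largest change were selected against MEF and between lines, and only a part of these is named. Of the 2 nearest profiles found for each member above background, also only a part is named. Same-numbered samples did not pair: of 30 pairs across groups, 0 correlated over 0.1.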

Additional observations from a re-analysis of the deposited data

Results flagged for a closer look

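For 7 members the change from MEF differed between lines by the test of the lines against each other (limma, Benjamini-Hochberg adjustment over all genes). Ptgs2 differed in 5 of 6 pairs of lines, by 3.86 for IP14D-1 minus CL11, 1.40 for IP20D-3 minus CL11, -4.66 for IP14D-101 minus IP14D-1, -2.46 for IP20D-3 minus IP14D-1 and 2.19 for IP20D-3 minus IP14D-101 on the log2 scale. Where IP14D-101 or CL11 is involved, that group lay below background. Egr1 differed in 5 pairs, by 0.60 for IP14D-1 minus CL11, 0.87 for IP14D-101 minus CL11, 1.49 for IP20D-3 minus CL11, 0.89 for IP20D-3 minus IP14D-1 and 0.62 for IP20D-3 minus IP14D-101.

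Jun differed in 4 pairs, by 1.12 for IP14D-1 minus CL11, 0.97 for IP20D-3 minus CL11, -1.03 for IP14D-101 minus IP14D-1 and 0.87 for IP20D-3 minus IP14D-101. Fosl2 differed in 3, by 0.78 for IP14D-1 minus CL11, -1.59 for IP14D-101 minus IP14D-1 and 1.51 for IP20D-3 minus IP14D-101, with IP14D-101 below background. Fosl1 was lower in IP14D-101, by -1.16 against CL11 and -1.51 against IP14D-1, with IP14D-101 below background. Egr2 differed by 1.50 for IP14D-1 minus CL11, with both groups below background, and Maff by 0.91 for IP20D-3 minus CL11, at an adjusted p of 0.0475. No weighing of causes was made for these differences.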

How the results depend on the processing

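Over 11 alternative settings and the omission of each array in turn, 1690 results of single members were recomputed; 1566 kept their call and direction, 88 lost a call, 36 gained one and 0 reversed. The number of members called in IP14D-1 against CL11, 5, became 3 with quantile normalization, 2 with median scaling and 2 to 5 without single arrays. In IP14D-101 against CL11, 2 became 1 with quantile normalization, with median scaling or with only the compared arrays, and 1 to 3 without single arrays. In IP20D-3 against CL11, 4 became 2 with median scaling or the mean over probe sets, and 2 to 6 without single arrays. In IP20D-3 against IP14D-1, 2 became 4 with no scaling. The cause was not tested. Median scaling shifted the median difference of all genes to 0.29 in CL11 and 0.39 in IP14D-101 against MEF, and no scaling to -0.52 in IP20D-3 and -0.51 in IP14D-101. With the replicate number as a block (replicate block), 9 members were called in CL11, 8 in IP14D-101 and 7 each in IP14D-1 and IP20D-3 against MEF, and 5, 2 and 3 in IP14D-1, IP14D-101 and IP20D-3 against CL11; 7 of 15 arrays correlated best with arrays of their own number, so the numbers give no pairing. Signals below background limit Fosb and Egr2, Fosl1 in IP20D-3 and IP14D-101, Fosl2 in IP14D-101, and Ptgs2 in IP14D-101 and CL11.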
